A study of Mus musculus with 15 samples.

Results

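Myeloid C-type lectin receptors are surface proteins with which macrophages, monocytes, neutrophils and dendritic cells bind sugars, glycolipids and products of dead cells. The set described here holds the 9 genes Clec7a, Clec4d, Clec4e, Clec4n, Clec4a2, Clec5a, Clec10a, Clec12a and Mrc1, taken by name as a receptor family, with earlier results of these data known. All 9 were found among 57132 gene identifiers, and all 9 were among the 18181 genes that passed the low count filter and were tested.

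Bulk RNA was sequenced from liver pieces of male C57BL/6J mice, a common inbred strain, aged 8 weeks at the start and killed after 18 weeks on their diet. SR9009 mice (5 libraries) ate a choline-deficient high-fat diet with adapted amino acids (CDA-HFD), a feeding model of steatohepatitis with fibrosis. After 12 weeks they received daily intraperitoneal SR9009 at 100 mg/kg per day for 6 weeks. SR9009 is a synthetic agonist of the REV-ERB nuclear receptors, which repress transcription within the circadian clock. Vehicle mice (5 libraries) ate the same diet and were injected over the same 6 weeks with its carrier, 15% Kolliphor ELP in NaCl. Chow mice (4 libraries) ate standard chow. Whether Chow mice received injections is not in the labels, so diet and injection cannot be told apart in any comparison with Chow, and they give no hour of collection. All groups are males of 1 strain, and the model is a diet with no genetic change.

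Activating receptors of this family signal through an immunoreceptor tyrosine-based motif. In Clec7a that motif lies in the receptor's own tail, whereas Clec4d, Clec4e and Clec4n use the adaptor chain Fcer1g and Clec5a uses Tyrobp. The kinase Syk is recruited to the motif, and from there Card9 with Bcl10 and Malt1 leads to NF-kappa B and cytokine genes. Clec4a2 and Clec12a carry inhibitory motifs that recruit phosphatases, while Mrc1 and Clec10a mainly take up glycoproteins. In the liver, resident Kupffer cells and incoming macrophages express many of these genes, and sinusoidal endothelial cells also express Mrc1.

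Total counts per library were between 29950509 and 45542335. Values are CPM, counts relative to library totals scaled by TMM. A floor of 3 counts was worth 0.0607 to 0.0780 CPM in SR9009 and Vehicle libraries and 0.0859 to 0.124 CPM in Chow libraries, for counting error only. Chow replicate 4 had the highest Chow value for every member but Clec10a, and also the highest summed Kupffer, monocyte and neutrophil markers of its group. The summed level of 8 hepatocyte markers was 58009 to 74972 CPM in SR9009, 70547 to 77392 CPM in Vehicle and 99873 to 137125 CPM in Chow libraries. A gene level in whole tissue cannot tell more cells of a type from more RNA per cell.

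Members of the set lie close together in the genome. In RefSeq (GRCm38.p6), Clec4a2, Clec4n, Clec4d and Clec4e follow each other on chromosome 6 with Clec4b2 among them, and Clec12a and Clec7a stand on the same chromosome with Clec12b, Clec1b, Clec9a and Clec1a between them. Clec5a is elsewhere on chromosome 6, Clec10a is on chromosome 11 and Mrc1 is on chromosome 2. Upstream sequences were available for 7 of 9 members. The 250 bases before the start are shown for the 3 activating receptors with the largest fold changes under the diet and for Mrc1, the member whose level did not pass the test. Each is written 5′ to 3′ on the gene's strand, with motif matches in capitals.
Clec7a, chr6:129472786-129473035, minus strand: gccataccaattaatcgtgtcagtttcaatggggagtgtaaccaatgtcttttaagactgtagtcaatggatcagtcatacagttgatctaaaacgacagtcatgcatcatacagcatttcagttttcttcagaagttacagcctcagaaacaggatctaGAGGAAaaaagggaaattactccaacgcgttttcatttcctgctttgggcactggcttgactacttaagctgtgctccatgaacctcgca
Clec4d, chr6:123261857-123262106, plus strand: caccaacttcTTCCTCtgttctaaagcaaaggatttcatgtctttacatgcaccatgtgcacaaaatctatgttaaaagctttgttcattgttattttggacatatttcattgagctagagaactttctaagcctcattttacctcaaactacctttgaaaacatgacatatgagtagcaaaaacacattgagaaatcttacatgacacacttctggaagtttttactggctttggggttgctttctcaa
Clec4e, chr6:123289872-123290121, minus strand: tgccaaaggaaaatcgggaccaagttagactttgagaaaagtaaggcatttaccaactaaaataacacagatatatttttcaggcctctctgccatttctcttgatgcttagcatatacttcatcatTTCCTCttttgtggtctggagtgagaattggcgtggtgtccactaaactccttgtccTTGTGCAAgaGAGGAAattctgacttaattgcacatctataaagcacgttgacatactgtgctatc
Mrc1, chr2:14229164-14229413, plus strand: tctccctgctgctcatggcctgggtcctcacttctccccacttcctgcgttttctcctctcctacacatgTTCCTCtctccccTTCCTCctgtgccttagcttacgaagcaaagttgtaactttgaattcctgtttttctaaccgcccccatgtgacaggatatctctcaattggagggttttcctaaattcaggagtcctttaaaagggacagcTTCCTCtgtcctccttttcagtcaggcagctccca
Capitals mark GAGGAA or its reverse complement TTCCTC, the core bound by PU.1 and related Ets factors of myeloid cells, and in Clec4e also TTGCNNAA read on either strand, a C/EBP core. Matches do not overlap in these 4 windows. GAGGAA was found on either strand in 6 of 7 members, against 23.1% of 27025 promoter windows of the same length. The C/EBP core was in 2 of 7 members (9.55% of windows) and the AP-1 core TGANTCA in 1 of 7 (6.85%). AGGTCA, the half-site of many nuclear receptors, was in 0 of 7 (13.8%). A match describes letters only. The window of Mrc1 holds 3 GAGGAA cores, that of Clec4e 2 and those of Clec7a and Clec4d 1 each.

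Vehicle livers were first compared with Chow livers, for the effect of diet and carrier on these receptors. By edgeR's quasi-likelihood test with Benjamini-Hochberg adjustment over all tested genes, 8 of 9 members were higher in Vehicle livers and 0 were lower, against 29.8% of all tested genes called higher and 25.4% called lower. In all 8, every Vehicle library was above every Chow library, which held for 24.7% of tested genes. The median log2 fold change of the 9 members was 3.07, and that of all tested genes was 0.02. Fold changes spanned a wide range, with Clec4e, Clec4d and Clec7a at the top, Clec10a and Clec4n at the bottom of the 8, and Mrc1 near no difference.

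**Figure D1:**
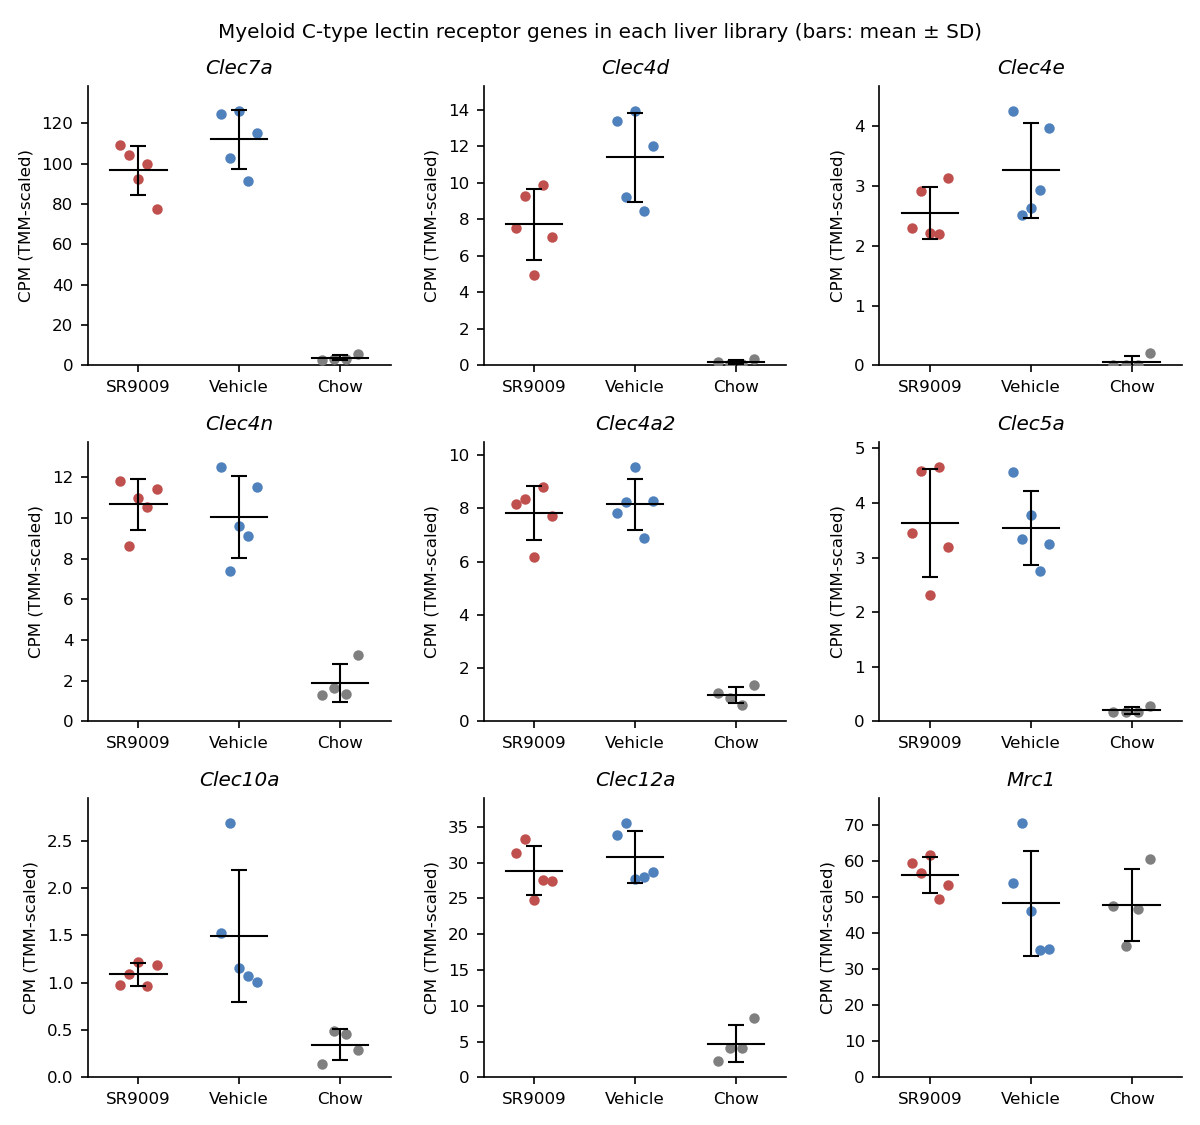
CPM on TMM-scaled totals (y axis, linear from 0) of the 9 receptor genes in SR9009 (n = 5), Vehicle (n = 5) and Chow (n = 4) libraries; each point is 1 library, and bars give the mean ± SD. In 8 panels all diet-fed points lie above all Chow points, while the Mrc1 points of the 3 groups overlap.

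Clec7a (ENSMUSG00000079293.13) encodes Dectin-1, the receptor for fungal beta-glucan. It had 125, 103, 126, 91.5 and 115 CPM in Vehicle libraries 1 to 5, against 2.74, 3.21, 3.34 and 5.52 CPM in Chow libraries 1 to 4. The lowest Vehicle library lay far above the highest Chow library. The mean was 112 ± 14.8 CPM in Vehicle (SD, n = 5) and 3.70 ± 1.24 CPM in Chow (SD, n = 4). The fold was 30.5 (95% interval 22.9 to 40.7), a log2 fold change of 4.93 ± 0.19 (SE) with an edgeR adjusted p of 1.20e-10.

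Clec4d (ENSMUSG00000030144.5) encodes MCL, a partner of the glycolipid receptor Mincle. Its Vehicle libraries 1 to 5 held 13.4, 9.20, 13.9, 8.44 and 12.0 CPM, against 0.211, 0.0859, 0.0993 and 0.330 CPM in Chow libraries 1 to 4. These Chow values stand for 6, 3, 3 and 8 counts, near the floor of detection. The fold was 65.2 (95% interval 39.3 to 108), a log2 fold change of 6.03 ± 0.34 (SE) with an edgeR adjusted p of 2.32e-09.

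Clec4e (ENSMUSG00000030142.11) encodes Mincle, which binds mycobacterial cord factor and a protein released by dying cells. Vehicle libraries 1 to 5 held 4.24, 2.52, 2.63, 2.94 and 3.97 CPM. Chow libraries 1 to 3 held 0 counts, which allows up to 0.105, 0.0859 and 0.0993 CPM, and Chow replicate 4 held 5 counts, or 0.206 CPM. The fitted fold was 70.3 (95% interval 30.0 to 165; edgeR adjusted p = 3.65e-07), and it rests on those 5 counts. Without Chow replicate 4 the remaining Chow libraries were all at 0, and the Vehicle mean was at least 31.0-fold higher than the highest of their floors per library.

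Clec4n and Clec5a are the other activating receptors. Clec4n (ENSMUSG00000023349.15) encodes Dectin-2, a receptor for fungal alpha-mannan, and had 12.5, 7.41, 9.59, 9.11 and 11.5 CPM in Vehicle libraries 1 to 5, against 1.30, 1.66, 1.36 and 3.26 CPM in Chow libraries 1 to 4. Its fold of 5.35 (95% interval 3.74 to 7.67; edgeR adjusted p = 7.17e-07) was well below that of its neighbours Clec4d and Clec4e, with intervals that do not meet. Clec5a (ENSMUSG00000029915.15) encodes MDL-1, known as a receptor for dengue virus. It held 4.56, 3.34, 3.79, 2.75 and 3.25 CPM in Vehicle libraries 1 to 5, against 0.175, 0.172, 0.166 and 0.289 CPM in Chow libraries 1 to 4. Those Chow values stand for 5, 6, 5 and 7 counts, near the floor of detection. The fold of Clec5a was 17.7 (95% interval 11.4 to 27.5; edgeR adjusted p = 2.39e-08).

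The inhibitory receptors were higher too. Clec4a2 (ENSMUSG00000030148.16), which encodes the mouse DCIR, had 7.82, 8.26, 9.54, 6.88 and 8.28 CPM in Vehicle libraries 1 to 5, against 1.05, 0.888, 0.629 and 1.36 CPM in Chow libraries 1 to 4. Its fold was 8.37 (95% interval 6.27 to 11.2; edgeR adjusted p = 7.59e-09). Clec12a (ENSMUSG00000053063.12), which encodes a receptor for uric acid crystals, had 33.8, 35.5, 27.8, 28 and 28.7 CPM in Vehicle libraries 1 to 5, against 2.35, 4.12, 4.07 and 8.37 CPM in Chow libraries 1 to 4. The groups did not overlap, and the fold was 6.57 (95% interval 4.50 to 9.58; edgeR adjusted p = 6.29e-07). Of 50-base windows in the Clec4a2 transcripts, 6.69% also occur in other genes, Clec4a4 and Clec4b1 among them, so part of its reads could not be placed with certainty.

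The uptake receptors parted. Clec10a (ENSMUSG00000000318.17), the galactose-type lectin of macrophages and dendritic cells, had 1.53, 2.68, 1.16, 1.07 and 1.0 CPM in Vehicle libraries 1 to 5, against 0.140, 0.487, 0.463 and 0.289 CPM in Chow libraries 1 to 4. Vehicle replicate 2 stood high, and the fold was 4.22 (95% interval 2.44 to 7.30; edgeR adjusted p = 0.000193). Of its 50-base windows, 9.02% also occur in other genes, including its paralog Mgl2. Mgl2 itself was 4.25-fold higher (0.579 ± 0.254 CPM in Vehicle, n = 5, and 0.131 ± 0.101 CPM in Chow, n = 4; SD; edgeR adjusted p = 0.00525).

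Mrc1 (ENSMUSG00000026712.4) encodes the mannose receptor CD206. It held 53.9, 70.5, 46.3, 35.4 and 35.7 CPM in Vehicle libraries 1 to 5, against 47.7, 36.4, 46.7 and 60.5 CPM in Chow libraries 1 to 4. The groups overlapped throughout. The log2 fold change was 0.02 ± 0.19 (SE; edgeR adjusted p = 0.946), and the 95% interval of the fold, 0.769 to 1.33, does not reach the smallest fold among the other 8 members. On raw library totals, which shift the median of all tested genes to 0.50 on the log2 scale, the log2 fold change of Mrc1 was 0.51 with an edgeR adjusted p of 0.0340, a difference the size of that shift.

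**Figure D2:**
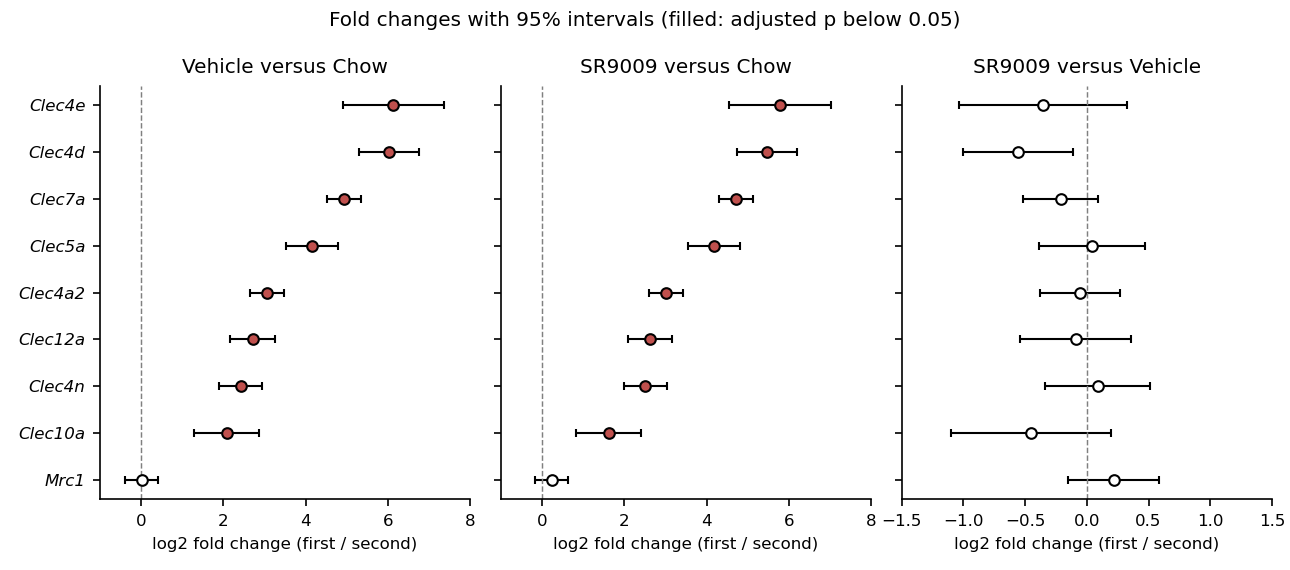
Log2 fold change (x axis) of each receptor gene (y axis) in 3 comparisons, with 95% intervals as lines; filled points have an edgeR adjusted p below 0.05, and the right panel has its own x axis. The first 2 panels share the Chow libraries and show 8 filled points each, and the panel of SR9009 versus Vehicle shows none.

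Marker genes of several cell classes moved with the members. Of 9 macrophage markers 8 were higher in Vehicle, and the summed level of the list was 1553 to 2492 CPM in Vehicle and 182 to 516 CPM in Chow. All 7 monocyte markers were higher, with sums of 70.2 to 106 CPM in Vehicle and 6.52 to 13.8 CPM in Chow. Of 8 markers of lipid-associated macrophages 7 were higher, with sums of 1738 to 2764 CPM in Vehicle and 107 to 177 CPM in Chow. All 8 tested neutrophil markers were higher, but in only 3 of them was every Vehicle library above every Chow library. The summed level of the list was 16.2 to 109 CPM in Vehicle and 3.26 to 15.9 CPM in Chow, and Vehicle replicate 2 gave the highest sum. Clec4d and Clec4e, which neutrophils also express, were at 9.20 and 2.52 CPM there, the lowest Vehicle value for Clec4e. Of 7 Kupffer cell markers 1 was higher and 2 were lower. Cd5l averaged 170 ± 39.9 CPM in Vehicle and 79.5 ± 50.2 CPM in Chow, Cd163 0.410 ± 0.122 CPM in Vehicle and 14.6 ± 7.82 CPM in Chow, and Timd4 0.672 ± 0.543 CPM in Vehicle and 6.12 ± 3.77 CPM in Chow (SD, n = 5 and 4). Dendritic cell markers were higher in 6 of 8 cases, with sums of 52.4 to 66.5 CPM in Vehicle and 15.6 to 27.7 CPM in Chow, and lymphocyte markers in 5 of 8, with sums of 13.5 to 16.7 CPM in Vehicle and 5.33 to 11.3 CPM in Chow. Beyond leukocytes, 6 of 7 stellate cell markers were higher (688 to 857 CPM in Vehicle, 203 to 285 CPM in Chow), as were all 6 cholangiocyte markers (413 to 979 CPM in Vehicle, 50.1 to 84.8 CPM in Chow). Spp1 is on both the cholangiocyte list and the list of lipid-associated macrophages. It makes up a large part of both sums, which are therefore not separate measures. The part of cell numbers in the member differences was not tested.

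Each member was therefore also set against Ptprc (CD45), which all leukocytes express, within the same library. Ptprc averaged 48.3 ± 5.06 CPM in Vehicle and 12.4 ± 5.04 CPM in Chow (SD, n = 5 and 4), a fold of 3.90 (95% interval 2.82 to 5.39; edgeR adjusted p = 3.14e-06). Clec7a stood at 234 ± 41.2 counts per 100 Ptprc counts in Vehicle and 31.3 ± 6.91 in Chow. For Clec4d the values were 23.9 ± 6.24 in Vehicle and 1.61 ± 1.1 in Chow, for Clec5a 7.36 ± 1.47 in Vehicle and 1.75 ± 0.604 in Chow, and for Clec12a 63.7 ± 3.54 in Vehicle and 37.2 ± 6.75 in Chow. Clec4e stood at 6.77 ± 1.52 per 100 Ptprc counts in Vehicle and at 0 in 3 of 4 Chow libraries. For these 5 genes every Vehicle ratio exceeded every Chow ratio. The differences of mean log2 ratio were 2.91 for Clec7a, 3.95 for Clec4d, 2.00 for Clec5a and 0.79 for Clec12a. Each had an exact two-sided permutation p of 0.00794, the smallest that 126 splits allow, and an adjusted p of 0.0238 over 18 ratios. The size for Clec4e is not given as a log2 difference, since Chow libraries at 0 take their ratio from the added 0.5. Without Chow replicate 4 all Chow libraries were at 0, and the Vehicle mean was at least 4.33-fold higher than 3 counts over the lowest Ptprc count among them.

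The ratio of Mrc1 to Ptprc went the other way. Mrc1 stood at 99.3 ± 22.9 counts per 100 Ptprc counts in Vehicle and 429 ± 186 in Chow, lower in all 5 Vehicle libraries, with a log2 difference of -2.06 (exact permutation p = 0.00794, adjusted p = 0.0238). In CPM, Mrc1 itself was nearly level (log2 fold change 0.02) while Ptprc was 3.90-fold higher in Vehicle. Sinusoidal endothelial cells also express Mrc1, so its ratio is not a level per leukocyte. Clec4a2 was at 17.1 ± 3.04 in Vehicle and 8.99 ± 4.73 in Chow, a log2 difference of 1.03 (exact permutation p = 0.0317, adjusted p = 0.0815). Clec4n, at 20.9 ± 4.38 in Vehicle and 15.6 ± 4.15 in Chow, and Clec10a, at 3.02 ± 1.11 in Vehicle and 2.91 ± 1.38 in Chow, also did not pass (exact permutation, adjusted p = 0.286 and 0.905).

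The choice of the leukocyte gene changed part of this. Cd68, a lysosomal protein of macrophages, averaged 98.3 ± 16.1 CPM in Vehicle and 8.02 ± 3.14 CPM in Chow (SD, n = 5 and 4). Against Cd68 the log2 difference was -0.83 for Clec12a (adjusted p = 0.0238), -1.2 for Clec4n (adjusted p = 0.0238), -1.585 for Clec10a (adjusted p = 0.0408) and -0.59 for Clec4a2 (adjusted p = 0.0857), all by exact permutation and all of the opposite sign to the ratio to Ptprc. Clec5a was at 0.37 (exact permutation, adjusted p = 0.0714). Against Csf1r, the receptor for the macrophage growth factor CSF1, Clec4n and Clec4a2 also passed, at 0.84 and 1.44 (exact permutation, adjusted p = 0.0204 each).

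**Figure D3:**
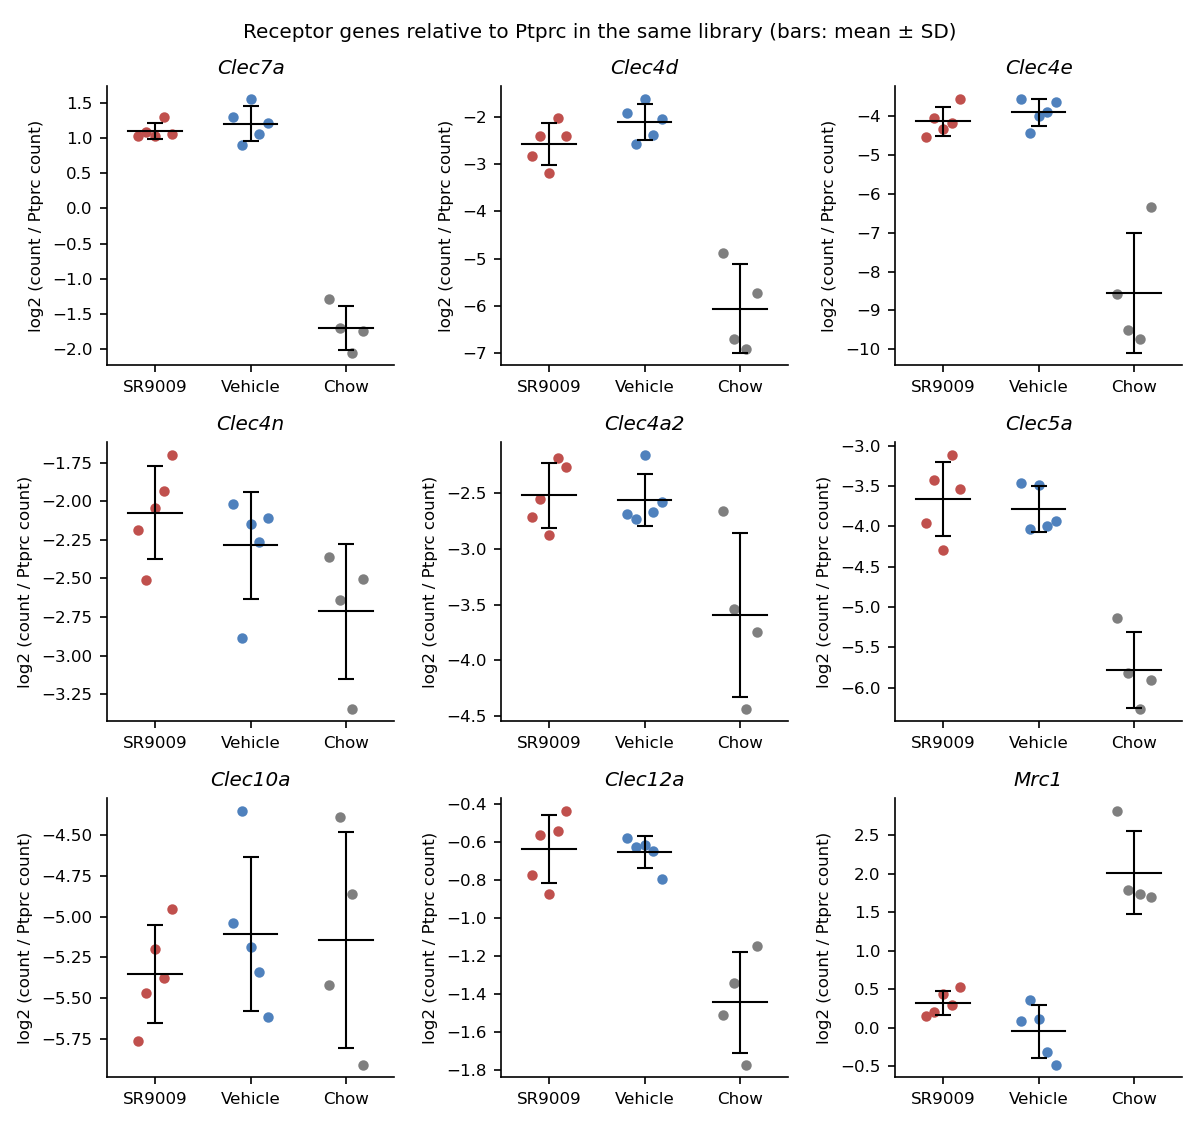
Log2 ratio of each receptor count to the Ptprc count of the same library (y axis, each panel with its own range; 0.5 added to both counts) in SR9009 (n = 5), Vehicle (n = 5) and Chow (n = 4); points are libraries and bars the mean ± SD. Clec7a, Clec4d, Clec4e, Clec5a and Clec12a lie higher in Vehicle than in every Chow library and Mrc1 lies lower, while Clec4n, Clec4a2 and Clec10a overlap.

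SR9009 livers were next compared with Vehicle livers, for the effect of the agonist under the diet. By edgeR 0 of 9 members passed, against 0.242% of all tested genes called, and DESeq2 and limma-voom called 0 as well. At an unadjusted p below 0.05 there was 1 of 9 members, against 7.28% of all tested genes. The median log2 fold change of the members was -0.09 and that of all tested genes was 0.00. SR9009 and Vehicle libraries overlapped for every member, while 0.891% of tested genes had every SR9009 library above every Vehicle library and 0.979% every one below.

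Clec4d was the member with an unadjusted p below 0.05. It had 7.53, 9.29, 4.96, 9.86 and 7.01 CPM in SR9009 libraries 1 to 5, against 13.4, 9.20, 13.9, 8.44 and 12.0 CPM in Vehicle libraries 1 to 5. SR9009 replicates 2 and 4 lay within the Vehicle range. The mean was 7.73 ± 1.95 CPM in SR9009 and 11.4 ± 2.46 CPM in Vehicle (SD, n = 5 each). The ratio was 0.679 (95% interval 0.499 to 0.923), with an edgeR p of 0.0168 before and 0.481 after adjustment. Over its alternatives that leave out 1 library each, the log2 fold change kept between -0.66 and -0.44, with adjusted p between 0.351 and 0.827. Some macrophage markers leaned the same way without passing, while others were level or leaned the other way. Of 8 markers of lipid-associated macrophages 0 passed and 3 had an unadjusted p below 0.05, with ratios of 0.661 for Mmp12, 0.757 for Lpl and 0.767 for Gpnmb (edgeR adjusted p = 0.108, 0.552 and 0.577), and every SR9009 library was below every Vehicle library for Mmp12 and Lpl. Their sums were 1406 to 2467 CPM in SR9009 and 1738 to 2764 CPM in Vehicle. Of 9 macrophage markers 0 passed and 1 had an unadjusted p below 0.05. This was Itgax, a macrophage and dendritic cell integrin, with a ratio of 0.738 (edgeR adjusted p = 0.547). The median log2 fold change of those 9 was 0.0009, and that of the 8 markers of lipid-associated macrophages was -0.24. Neutrophil markers had a median log2 fold change of -1.03 with 0 of 8 passing. They had sums of 18.2 to 28.6 CPM in SR9009 and 16.2 to 109 CPM in Vehicle, the highest in Vehicle replicate 2. By the median library the sum was higher in SR9009 (24.8 CPM) than in Vehicle (20.5 CPM). Their part in the Clec4d values was not tested. Against Ptprc the log2 difference of Clec4d was -0.46 (exact permutation p = 0.127, adjusted p = 0.254), and against Csf1r it was -0.61 (exact permutation p = 0.0159, adjusted p = 0.0318). Against Cd68 it did not pass, and the adjustment does not cover the choice among these denominators.

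None of the other activating receptors passed. Clec7a had 109, 104, 92.6, 99.6 and 77.7 CPM in SR9009 libraries 1 to 5, a mean of 96.7 ± 12.3 CPM in SR9009 and 112 ± 14.8 CPM in Vehicle (SD, n = 5 each). Its ratio was 0.863 (95% interval 0.698 to 1.07; edgeR adjusted p = 0.853). Clec4e averaged 2.55 ± 0.440 CPM in SR9009 and 3.26 ± 0.795 CPM in Vehicle. Its ratio of 0.782 had the widest interval of these receptors, 0.487 to 1.25 (edgeR adjusted p = 0.911). Clec4n averaged 10.7 ± 1.25 CPM in SR9009 and 10.0 ± 2.01 CPM in Vehicle, and its ratio was 1.06 (95% interval 0.792 to 1.43). Clec5a averaged 3.64 ± 0.988 CPM in SR9009 and 3.54 ± 0.681 CPM in Vehicle, and its ratio was 1.03 (95% interval 0.763 to 1.39).

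Both inhibitory receptors had ratios near 1. Clec4a2 averaged 7.84 ± 1.02 CPM in SR9009 and 8.16 ± 0.960 CPM in Vehicle, with the ratio 0.961 (95% interval 0.767 to 1.2). Clec12a averaged 28.9 ± 3.41 CPM in SR9009 and 30.8 ± 3.62 CPM in Vehicle, with the ratio 0.939 (95% interval 0.688 to 1.28). The data thus leave room for changes of up to about the bounds of these intervals in either direction. Clec10a averaged 1.09 ± 0.119 CPM in SR9009 and 1.49 ± 0.697 CPM in Vehicle, with the ratio 0.732 (95% interval 0.466 to 1.15; edgeR adjusted p = 0.855), and without Vehicle replicate 2 its log2 fold change was -0.13 (edgeR adjusted p = 0.958).

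Mrc1 had 59.7, 56.7, 61.7, 49.5 and 53.4 CPM in SR9009 libraries 1 to 5, against 53.9, 70.5, 46.3, 35.4 and 35.7 CPM in Vehicle libraries 1 to 5. The SR9009 libraries were close together and lay inside the Vehicle range. The ratio was 1.16 (95% interval 0.898 to 1.5; edgeR adjusted p = 0.885). The libraries also fall into 2 classes by how many olfactory, vomeronasal and trace amine receptor genes had a count. This number was 50 to 113 in all 4 Chow libraries, Vehicle replicates 4 and 5 and SR9009 replicates 1 and 3, and 158 to 243 in the other 6. No label names this class, which was read from the counts. Among libraries with few such genes (2 against 2), the log2 fold change of Mrc1 was 0.78 (edgeR adjusted p = 0.0310). Among those with many (3 against 3) it was -0.12 (adjusted p = 0.863), and the difference between the classes was not tested. Summed sinusoidal endothelial markers were 383 to 408 CPM in SR9009 and 277 to 453 CPM in Vehicle, with Vehicle replicates 5 and 4, the libraries lowest in Mrc1, also lowest in that sum. Their part in the Mrc1 values was not tested.

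The comparison of SR9009 with Chow shares its libraries with both comparisons above, so its values are given beside theirs. Again 8 of 9 members were higher and 0 lower (30.5% of all tested genes were called higher and 25.7% lower). In all 8 every SR9009 library was above every Chow library (25.5% of tested genes). The median log2 fold change of the members was 3.01 and that of all tested genes 0.02. The fold was 26.4 for Clec7a (30.5 in Vehicle versus Chow), 44.3 for Clec4d (65.2), 18.3 for Clec5a (17.7), 8.05 for Clec4a2 (8.37), 6.17 for Clec12a (6.57), 5.70 for Clec4n (5.35) and 3.09 for Clec10a (4.22). For Clec4e the fitted fold was 55.0 (70.3), and without Chow replicate 4 the SR9009 mean was at least 24.2-fold higher than the floor. Mrc1 had a log2 fold change of 0.23 ± 0.19 (SE; edgeR adjusted p = 0.302), and on raw library totals 0.69 (adjusted p = 0.00681), where the median of all tested genes was 0.47.

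Per kilobase of exon, the order of the receptors was not the same in diet-fed and Chow livers. In Chow, Mrc1 led with 7.51 ± 1.55 CPM per kb, and no Chow library of the next gene, Clec7a at 1.40 ± 0.471, reached its range. In SR9009 and Vehicle livers Clec7a led with 36.7 ± 4.67 and 42.5 ± 5.61 CPM per kb, above Mrc1 at 8.82 ± 0.765 and 7.59 ± 2.29 with no overlap of libraries. Behind Mrc1 in Vehicle came Clec4d at 7.13, Clec4n at 7.06 and Clec12a at 5.56 CPM per kb, and the library ranges of these neighbours overlapped. Clec4a2 followed at 2.79, then Clec5a at 0.921, Clec4e at 0.657 and Clec10a at 0.514 CPM per kb, with overlap among the last 3 neighbours. At the low end in Chow, Clec4d was at 0.113, Clec5a at 0.0522 and Clec4e at 0.0104 CPM per kb. Clec4n stood above Clec4d by the mean in SR9009 livers (7.51 and 4.84 CPM per kb) and in Chow livers (1.33 and 0.113 CPM per kb). In SR9009 the libraries overlapped, with Clec4n from 6.051 and Clec4d up to 6.165 CPM per kb. Lengths join the exons of all annotated transcripts of a gene, so they can exceed that of the expressed RNA.

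**Figure D4:**
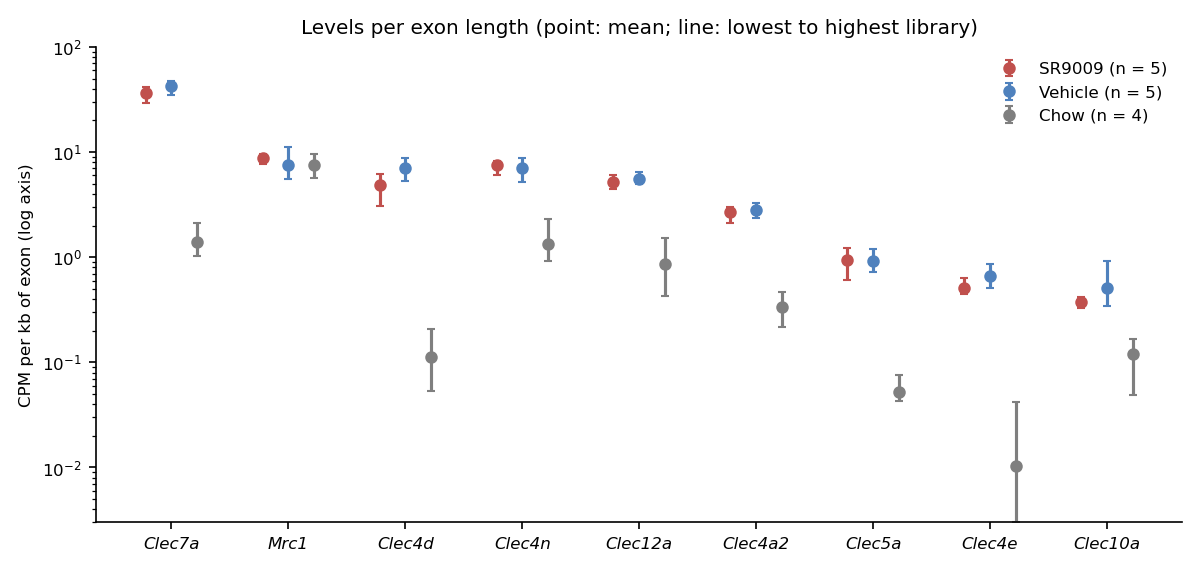
CPM per kb of exon (y axis, log scale) of the 9 receptor genes (x axis, ordered by the Vehicle mean) in SR9009 (n = 5), Vehicle (n = 5) and Chow (n = 4); points are means and lines run from the lowest to the highest library, with the line of Clec4e in Chow running down to 0 and ending at the axis floor. Clec7a leads in diet-fed livers and Mrc1 leads in Chow livers.

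The partners that carry the receptor signal were described from a list of 20 genes. In Vehicle versus Chow 19 of 20 were higher and 0 lower by edgeR, against 29.8% of all tested genes called higher and 25.4% called lower. The median log2 fold change of the list was 1.68. The smallest adjusted p-values belonged to Tyrobp, Inpp5d, Src and Prkcd. Tyrobp (DAP12), the adaptor of Clec5a, averaged 62.1 ± 10.1 CPM in Vehicle and 6.74 ± 2.80 CPM in Chow (SD, n = 5 and 4), a fold of 9.28 (adjusted p = 1.84e-08). Inpp5d, the lipid phosphatase SHIP1, was 4.67-fold, the kinase Src 4.78-fold and Prkcd, the kinase that phosphorylates Card9, 2.75-fold higher. Fcer1g, Syk and Card9, named after their values were seen, were 6.08-fold, 5.46-fold and 6.21-fold higher in Vehicle. Ptpn11, a broadly expressed phosphatase, did not pass, with 90.3 ± 4.20 CPM in Vehicle and 97.5 ± 6.50 CPM in Chow (edgeR adjusted p = 0.189). In SR9009 versus Vehicle 0 of 20 passed (median -0.07; 0 at an unadjusted p below 0.05, and 0 by DESeq2 and by limma-voom). In SR9009 versus Chow 17 of 20 were higher (median 1.59).

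Output genes of the Syk-Card9 route came from a list of 20 cytokines, chemokines and early response genes, of which 16 were tested. In Vehicle versus Chow 12 of 16 were higher and 0 lower, against 29.8% of all tested genes called higher and 25.4% called lower. Il1a, Cxcl1, Egr1 and Nfkbiz, named after their values were seen, did not pass. Signalling through the receptors was not measured. The median log2 fold change of the 16 genes was 3.11, and 2.15 with Ptgs2, which had 0 counts in all Chow libraries, at its lower bound. Egr2, an early growth response factor, averaged 8.02 ± 0.602 CPM in Vehicle and 0.120 ± 0.112 CPM in Chow, a fold of 69.9 (edgeR adjusted p = 3.42e-09). Tnf averaged 2.59 ± 0.704 CPM in Vehicle and 0.197 ± 0.0792 CPM in Chow, a fold of 13 (adjusted p = 1.62e-07). The chemokines Ccl4 and Ccl3 were at 1.92 ± 0.460 and 1.14 ± 0.437 CPM in Vehicle and at 0.103 ± 0.0995 and 0.0572 ± 0.0434 CPM in Chow (edgeR adjusted p = 1.18e-06 and 1.99e-06). Both rest on few Chow counts, 12 for Ccl4 and 7 for Ccl3 over the 4 libraries. In SR9009 versus Vehicle 0 of 16 passed (median -0.18; 1 at an unadjusted p below 0.05, and 0 by DESeq2 and by limma-voom). That gene, Egr1, had 62.6 ± 32.0 CPM in SR9009 and 136 ± 88.6 CPM in Vehicle (edgeR adjusted p = 0.672). In SR9009 versus Chow 12 of 16 were higher and 1, Egr1, was lower.

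Other C-type lectins of liver cells were a list of 26 genes, 25 of them tested. In Vehicle versus Chow 15 were higher and 5 lower, against 29.8% of all tested genes called higher and 25.4% called lower. The median log2 fold change of the list was 0.94. On raw library totals the split of the list was 17 higher and 1 lower. The smallest adjusted p-values were those of Cd93, Mrc2, Olr1 and Klrb1b, all higher in Vehicle. Cd93, of endothelial and myeloid cells, averaged 27.5 ± 5.50 CPM in Vehicle and 6.10 ± 1.29 CPM in Chow (edgeR adjusted p = 4.03e-08). Mrc2, a collagen uptake receptor of mesenchymal cells and the paralog of Mrc1, averaged 26 ± 4.73 CPM in Vehicle and 2.91 ± 0.754 CPM in Chow, a fold of 8.84 (adjusted p = 1.54e-07). Olr1, a receptor for oxidised lipoprotein, averaged 1.03 ± 0.399 CPM in Vehicle and 0.0953 ± 0.0544 CPM in Chow. Klrb1b, of natural killer cells, had 125 counts over the Vehicle libraries and 1 count over the Chow libraries. The genes lower in Vehicle, named after their values were seen, were Clec2d, the hepatocyte receptors Asgr1 and Asgr2, Cd302 and Colec12. In SR9009 versus Vehicle 0 of 25 passed (median 0.09; 1 at an unadjusted p below 0.05, and 0 by DESeq2 and by limma-voom), and in SR9009 versus Chow 15 were higher and 5 lower (19 and 1 on raw library totals).

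Between Clec12a and Clec7a on chromosome 6 the differences were smaller. Clec1b and Clec9a had log2 fold changes of 0.98 ± 0.21 and 0.94 ± 0.22 (SE; edgeR adjusted p = 0.00114 and 0.00156) in Vehicle versus Chow. Clec1a was at 0.56 ± 0.25 (adjusted p = 0.0637). Clec12a at 2.72 and Clec7a at 4.93 stood above all 3 on the same scale. Clec12b and Clec4b2 did not pass the low count filter.

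**Figure D5:**
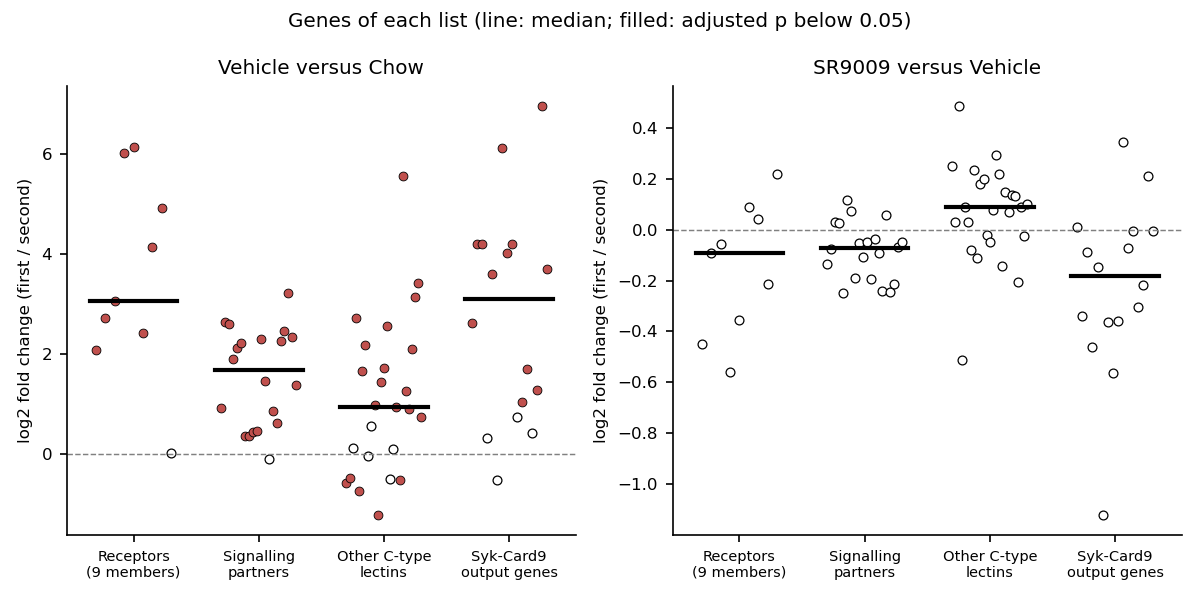
Log2 fold changes (y axis, a different range in each panel) of the 9 receptors, 20 signalling partners, 25 other C-type lectins and 16 Syk-Card9 output genes in Vehicle versus Chow and in SR9009 versus Vehicle; each point is a gene, filled where the edgeR adjusted p was below 0.05, and lines are medians. The highest output gene on the left is Ptgs2, whose fitted value rests on Chow libraries at 0, and no point is filled on the right.

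The genes most like each member were found as those with the smallest root mean square difference of centred log2 CPM over all 14 libraries, among 12521 genes. All libraries enter, so genes with a similar difference between diet-fed and Chow livers score as near. For Clec7a the nearest were Gpr137b at 0.32 and Myo5a at 0.33, for Clec4d Hs6st2 at 0.40 and Adam8 at 0.41, and for Clec4e Cxcl5 at 0.33 and Siglecf at 0.48. Clec4n was nearest to Mpeg1 at 0.21 and Ifi27l2a at 0.24, Clec4a2 to Gcnt1 at 0.16 and Epb41l1 at 0.20, and Clec5a to Myof at 0.18 and Cxcr4 at 0.21. Clec12a was nearest to Laptm5 and Cd180, both at 0.14, and Clec10a to Msantd3 at 0.33 and Slc25a27 at 0.39. For Mrc1 the nearest were F8 at 0.15 and Gimap6 at 0.17. These distances stand against a spread (SD of log2 CPM) of 0.30 for Mrc1 itself and of 1.01 to 3.23 for the other 8 members, so any gene of nearly even level scores as near to Mrc1. F8, the clotting factor made by sinusoidal endothelium, had a log2 fold change of -0.07 in Vehicle versus Chow and 0.16 in SR9009 versus Vehicle, beside 0.02 and 0.22 for Mrc1.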

How the data were processed

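Bulk liver RNA was sequenced on a NovaSeq X Plus, per the labels' protocols. The authors deposited whole-number counts for each Ensembl gene in each library, with no normalization. STAR 2.7.11b and GRCm39 are named in the submitters' processing notes. For read counting, its annotation and its strand setting, the sources used here name nothing, so overlapping genes (Gm44132 with Clec4a2, Mir511 with Mrc1) are uncertain. The labels describe 15 samples, and Chow replicate 5 was not used here, which leaves 14. Symbols were matched for 51880 identifiers (90.8%).

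Counts were tested with edgeR 4.0.16 in R 4.3.3: filterByExpr by group (minimum count 10, minimum total 15), TMM factors (0.753 to 0.824 in Chow, 1.02 to 1.15 in diet-fed libraries), robust quasi-likelihood fits over all 14 libraries, and Benjamini-Hochberg adjustment over 18181 genes with a threshold of 0.05. The filter kept 99.9% of counts. Ratios to Ptprc (0.5 added to each count) were compared by exact two-sided permutation over libraries, adjusted over 18 ratios. Exon lengths, overlaps and shared 50-base windows came from GENCODE M21, and promoters and gene order from RefSeq, both on an earlier assembly (GRCm38) than the counts. Alternatives were DESeq2 1.42.0, limma-voom (limma 3.58.1), other scalings and filters, fits on the compared groups alone, a replicate block, the receptor gene class, other denominators and leaving out each library. The methods were tested on simulated data.

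The 9 members, the gene lists and the marker lists were chosen with earlier results of these data known. All 9 members are named, with up to 4 genes of each list with the smallest adjusted p in Vehicle versus Chow and the 2 nearest genes of each member (mean of at least 1 CPM). None of 26 within-group library pairs matched within sampling noise (the smallest mean chi-square per gene was 15.75). The labels give each library its own sample number but do not tie it to an animal; p-values measure the spread between these libraries. Floors cover counting error only. Intervals of fold changes and ratios come from the SE of the edgeR fits and cover the spread between libraries, also where no SE is printed. The result of 1 marker gene is not reported here.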

Additional observations from a re-analysis of the deposited data

Results flagged for a closer look

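The highest or lowest library stood apart from the rest of its group, by Dixon's criterion, in 6 of 54 groups of member values; chance alone marks about 1 in 20. Chow replicate 4 was high for Clec4e (0.206 CPM, the others at 0) and for Clec5a (0.289 CPM, the others at 0.166 to 0.175). For Clec5a that value stands for 7 counts, against 5, 6 and 5 in Chow replicates 1 to 3. On the log2 ratio to Ptprc, Mrc1 in Chow replicate 1 was at 2.82 (the others at 1.70 to 1.80), Clec7a in SR9009 replicate 4 at 1.31 (1.03 to 1.09), Clec4n in Vehicle replicate 2 at -2.89 (-2.27 to -2.02) and Clec4a2 in Vehicle replicate 3 at -2.16 (-2.73 to -2.58). Chow replicate 1 had the lowest Ptprc level of its group, at 6.74 CPM, and Vehicle replicate 2 the highest, at 54.9 CPM.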

How the results depend on the processing

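The member counts of 8 higher in Vehicle versus Chow, 0 called in SR9009 versus Vehicle and 8 higher in SR9009 versus Chow stayed the same in number with DESeq2, limma-voom, DESeq2 size factors, 2 other filters, fits on the compared groups alone, the receptor gene class as a term and each of 14 fits that left out 1 library. Raw library totals gave 9, 0 and 9, the added gene being Mrc1. Libraries with few receptor genes gave 8, 1 and 8, the added gene again Mrc1, from 2 libraries a group in SR9009 versus Vehicle. Of 13 library pairs that share a replicate number, 3 correlated above 0.1 (range -0.404 to 0.244). Pairs of different number were not computed, so these values cannot decide whether the numbers pair the samples. The fit with the replicate block gave 8, 0 and 8 calls.

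Several signs turned, all in differences that had not passed the test except the ratio of Clec12a to Cd68; the cause was not tested. The log2 fold change of Mrc1 in Vehicle versus Chow was -0.14 with the receptor gene class as a term, -0.42 among libraries with few receptor genes, and -0.16 to 0.15 leaving out 1 library. In SR9009 versus Vehicle, libraries with few receptor genes gave -0.0451 for Clec5a and 0.0829 for Clec10a (-0.45 over all libraries), and those with many gave -0.12 for Mrc1. Leaving out 1 library gave -0.11 to 0.0151 for Clec4a2, -0.0617 to 0.16 for Clec5a and -0.00094 to 0.18 for Clec4n. Ratios to Csf1r in SR9009 versus Vehicle were -0.0965 for Clec4a2, -0.0195 for Clec5a and -0.13 for Clec12a. Ratios to Cd68 in Vehicle versus Chow were -1.2 for Clec4n, -0.59 for Clec4a2, -1.585 for Clec10a and -0.83 for Clec12a. Adding 5 to each count gave -0.44 for Clec10a. Ratios to Ptprc leaving out 1 library ran from -0.22 to 0.29 for Clec10a in Vehicle versus Chow, and in SR9009 versus Vehicle from -0.0352 to 0.0744 for Clec12a, -0.0373 to 0.15 for Clec4a2 and -0.0149 to 0.28 for Clec5a. With 1 library fewer the permutation test has fewer splits, and adjusted p-values of ratios that had passed rose to as much as 0.0857 by that construction. Depth limits Clec4e, Clec4d and Clec5a in Chow, where counts were 0 to 8 per library, and Clec10a, with 4 to 17.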
